A study of Drosophila melanogaster with 6 samples.

Results

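Input DNA from ovaries of su(Hw)f flies was compared with input DNA from wild-type ovaries, as a map of DNA content between the strains along the dm3 genome. Input is sheared chromatin taken before any precipitation. The comparison rests on 2 of the 6 samples of the series, 1 input library per genotype, chosen by their labels. The mutant flies carry the strain label su(Hw)fv, and the sample titles call them f. The wild-type flies were Canton S. Both genotypes were virgin females dissected less than 6 h after eclosion, and their ovaries were fixed in 1.8% formaldehyde. The label does not say what v stands for. The 2 preimmune libraries of the same genotypes, made from chromatin brought down by serum without the antibody, are separate libraries and are given beside the input values. The 2 immunoprecipitation libraries are not analysed here. The counts hold no base calls and no window is tied to a gene, so the su(Hw) genotype itself was not checked. The flies differ in strain as well as in genotype, and strain and mutation cannot be told apart in any ratio given here.

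The number of reads from a stretch of input DNA follows how many copies of it the cells carry, and how well the stretch shears, amplifies and aligns. A stretch missing from both homologues leaves no reads, and a duplicated one gives more reads than the DNA next to it. Ovaries mix diploid cells with polyploid nurse and follicle cells, which are known to replicate satellite-rich DNA near the centromeres less than the rest of the genome. Laboratory strains of Drosophila are known to differ by deletions, duplications and transposon insertions. In bulk ovaries a change in copies per cell and a change in the mix of cells cannot be told apart.

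The depth was 20596448 reads in su(Hw)f input, against 13993582 in wild-type input. Of these, 98.5% in su(Hw)f and 98.0% in wild type lay on the 6 major arms, to which each library was scaled. The median 2 kb window held 317 su(Hw)f input reads against 228 for wild type, and the median 10 kb window 1638 against 1147. Of the 1203812 windows of 100 bp on these arms, 6.82% were empty in both inputs. A further 2.04% were empty in su(Hw)f input alone and 0.878% in wild-type input alone, the shallower library. With 1 library per genotype there is no replicate check and no test. The 95% intervals given with ratios are exact conditional intervals (Clopper-Pearson) and cover counting error only.

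Over whole arms the inputs were close. Scaled reads of su(Hw)f over wild type came to 1.03 on X, 0.973 on 2L, 1.02 on 2R, 0.981 on 3L and 1.01 on 3R, against 0.752 (0.746 to 0.759) on chromosome 4. In 10 kb windows the median ratio was 0.947 on 2L, 0.956 on 3L and 0.990 on 3R, and 0.730 on chromosome 4. The 5th percentile of the 10 kb ratio was 0.829 on 3R and between 0.759 and 0.785 on the other large arms.

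**Figure D1:**
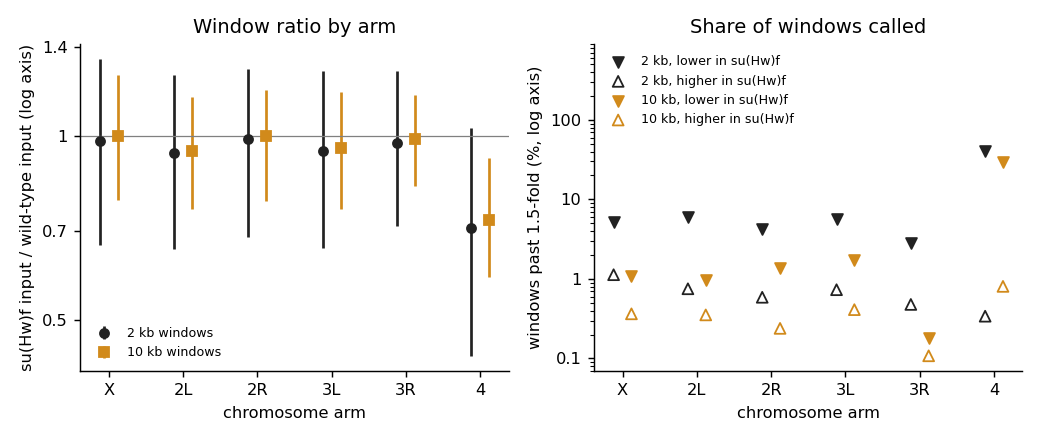
Left, median ratio of su(Hw)f input to wild-type input by chromosome arm (log axis), in 2 kb and 10 kb windows, with bars from the 5th to the 95th percentile of windows. Right, percent of windows at least 1.5-fold lower (filled) or higher (open) in su(Hw)f (log axis); chromosome 4 stands below the other arms, with 40.2% of its 2 kb windows lower.

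Over the interior of the 5 large arms, the SD of the log2 ratio, taken from its quartiles, was 0.270 in 2 kb windows and 0.175 in 10 kb windows. Counting error alone would give 0.124 and 0.0551. At 100 kb the observed SD was still 0.104, where counting error would give 0.0172. With 1 library per genotype, the spread between libraries of 1 genotype is not known, and these values do not separate it from a difference between the strains. The log2 ratio in input and that in preimmune, which share no library, had Pearson r = 0.567 and Spearman rho = 0.546 over the 52620 interior windows of 2 kb with reads in each of the 4 libraries. Over 1089 windows of 100 kb they had r = 0.959 and rho = 0.846. Without the 3 windows of 100 kb that overlap the X stretch described below, r was 0.854 and rho 0.846. Windows are not replicates, and the library pairs share their strains and the base composition of each window.

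**Figure D2:**
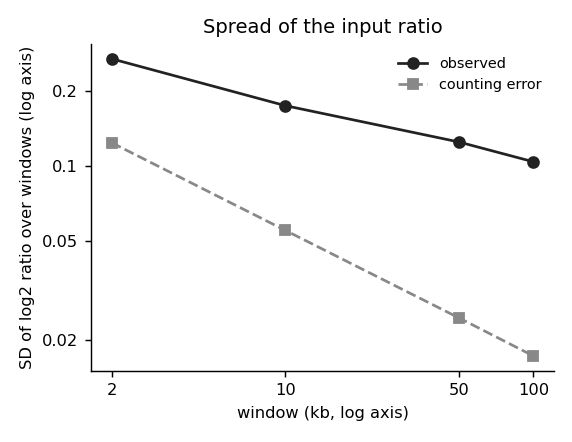
SD of the log2 ratio of su(Hw)f input to wild-type input over interior windows of the 5 large arms, against window size (both log axes). The observed SD (from the quartiles) is 0.270 at 2 kb and 0.104 at 100 kb, above the SD from counting error at each size.

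A window was called when the scaled inputs differed at least 1.5-fold and held at least 50 reads together. At 2 kb, 413 of 57334 windows stood higher in su(Hw)f input (0.720%), and 2918 stood lower (5.09%). At 10 kb, 35 of 11901 were higher (0.294%) and 159 lower (1.34%). Of the 2 kb windows, 1488 had a ratio between 0.6 and the threshold and 1248 a ratio of 0.4 to 0.6, while 107 lay between 0.1 and 0.4 and 75 under 0.1. On the higher side 349 windows lay between 1.5 and 2.5, and 64 at 2.5 or above. No gap set the called windows apart from the rest. The 2 kb windows nearest to the lower threshold had a ratio of 0.6666 just inside it (2R 2068001 to 2070000) and 0.6667 just outside it (X 2818001 to 2820000).

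Of the 75 windows under 0.1, 57 lay on X, 13 on 2R, 4 on 2L and 1 on chromosome 4 and none on 3L or 3R. The 57 on X were the 36, 14 and 7 windows of 3 neighbouring segments, and most of the 13 on 2R lay in 1 segment. Of the 64 windows at 2.5 or above, 29 lay on 3L, 15 on X, 8 each on 2L and 2R, and 4 on 3R. Of the 29 on 3L, 21 lay in 1 segment at the tip. These counts thus follow a few long stretches more than the arms as a whole. Ratios of 0.4 to 0.6 were found in 1.13% of 2 kb windows on 3R and 2.55% on 2L, the lowest and highest shares among the large arms. On chromosome 4 the share was 25.5%.

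Preimmune passed 1.5-fold the same way more often the further the input ratio lay from 1. Preimmune windows on the same side of 1 that fell short of 1.5-fold were not counted. Preimmune called 12.5% of all 57429 tested 2 kb windows higher in su(Hw)f and 12.1% lower. In the windows that input called, it gave the same call in 273 of 413 (66.1%) and in 1721 of 2918 (59.0%), and the opposite call in 5 and 16. By band, preimmune called lower 49.3% of windows with an input ratio between 0.6 and the threshold. The median preimmune ratio in that band was 0.671, close to the threshold itself. It called lower 66.3% of those at 0.4 to 0.6, 80.4% of those at 0.1 to 0.4 and 98.7% of those under 0.1. On the higher side it called 61.3% of the windows at 1.5 to 2.5 and 92.2% at 2.5 or above. The 10 kb windows followed the same order on the lower side, with 52.5% called in the band next to the threshold and 14 of 14 under 0.1. There the preimmune background was 2.57% higher and 3.42% lower.

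Neighbouring 2 kb windows with calls in 1 direction, at least 3 of them, were joined into segments that could bridge 1 window without a call. This gave 13 higher segments covering 192 kb and 151 lower segments covering 1592 kb, of which 32 lower segments were on chromosome 4. All 13 higher segments and 119 of the 151 lower ones also passed 1.5-fold as a whole. The other 32 lower ones did not once their bridged windows were counted in. In preimmune, 11 of the 13 higher and 99 of the 151 lower segments passed 1.5-fold the same way. The 2 higher segments that did not were X 21606001 to 21612000, at 1.94 in input (1.53 to 2.47) and 0.891 in preimmune, and 2L 19076001 to 19082000, at 1.71 in input (1.55 to 1.89) and 1.29 in preimmune.

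**Figure D3:**
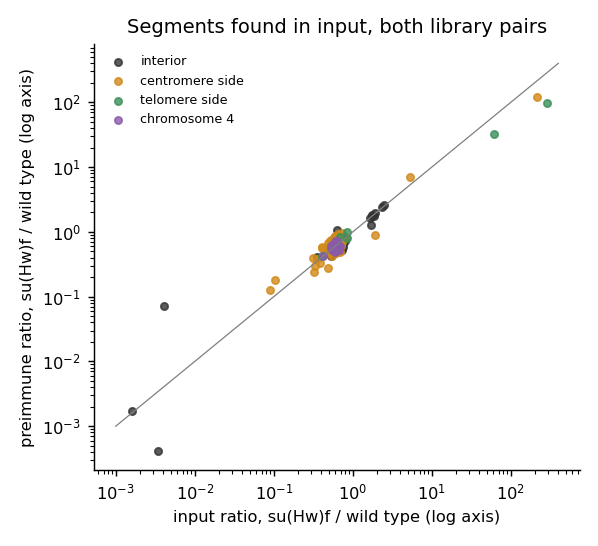
Ratio of su(Hw)f to wild type in preimmune against that in input for the segments found in input alone (both log axes, grey line of equality), coloured by position on the arm. Of the 13 higher and 151 lower segments, 11 and 99 pass 1.5-fold the same way in preimmune. X 2690001 to 2718000, at 0.00414 in input and 0.0712 in preimmune, has all of its 385 su(Hw)f preimmune reads in its first 2 kb.

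The lowest ratios were in stretches where its input was at or near 0 and wild-type input was within 1.5-fold of its flanks. On X, 3 segments between 2690001 and 2818000 formed 1 such stretch. They held 17, 7 and 17 reads in su(Hw)f input, against 2773, 1386 and 7218 in wild-type input. The 8 kb and 6 kb between them held 1 and 0 reads in su(Hw)f and 0 in wild type, so the breaks lie where neither library has reads. Over the whole stretch, gaps included, wild-type input stood at 0.831 times its flanks of 50 kb on each side (88.9 against 107 reads per kb) and su(Hw)f input at 0.00202 times. In preimmune the first segment was at 0.0712, with 385 su(Hw)f preimmune reads against 3250 in wild-type preimmune. All 385 lay in the first 2 kb window, 2690001 to 2692000, and the other 13 windows held 0.

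Shorter stretches near 0 in su(Hw)f lay on the centromere side of 2L and 2R. On 2L, the segment 22458001 to 22466000 held 74 su(Hw)f input reads against 480 wild-type input reads, a ratio of 0.104 (0.0804 to 0.133). Between borders placed where these same input reads changed most, as described below, 22455701 to 22463500 held 3 su(Hw)f input reads against 403 wild-type input reads, a ratio of 0.00503 (0.00103 to 0.0148). The preimmune libraries held 4 and 538 reads there, in su(Hw)f and wild type. On 2R, the segment 1146001 to 1172000 held 226 su(Hw)f input reads against 1703 wild-type input reads, a ratio of 0.0897 (0.0777 to 0.103). Between borders placed in the same way, 1151401 to 1172300 held 7 su(Hw)f input reads against 1458 wild-type input reads, a ratio of 0.00325 (0.00130 to 0.00670), and 4 against 1428 in preimmune. The intervals of stretches between borders do not cover the choice of borders. Wild-type input was at 1.19 and 1.07 times its flanks between these borders on 2L and 2R. The library close to 0 was thus su(Hw)f, with wild type within 1.5-fold of its flanks.

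The opposite case, reads in su(Hw)f input and few or none in wild-type input, was found at 3 telomere-side tips and in segments on the centromere side of 2R and X. At the tip of 2L, 4001 to 10000 held 637 su(Hw)f input reads against 7 wild-type input reads, a ratio of 61.5 (29.7 to 154), and 815 against 15 in preimmune. In the next 10 kb, 10001 to 20000, the inputs held 727 and 637 reads and the ratio was 0.771. At the tip of X, 10001 to 14000 held 439 su(Hw)f input reads against 0 for wild type, and 712 against 0 in preimmune. The next 10 kb on X was at 0.909 in input, with 662 reads in su(Hw)f and 492 in wild type. At the tip of 3L, the 42 kb from 22001 to 64000 held 3009 su(Hw)f input reads against 7 wild-type input reads, at 0.921 and 0.00272 times their flanks. At these 3 tips wild-type reads thus began further from the end of the assembled arm than su(Hw)f reads did.

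Near the centromere of 2R, the segment 760001 to 768000 held 1104 su(Hw)f input reads against 140 wild-type input reads, a ratio of 5.33 (4.47 to 6.40), and was at 6.94 in preimmune. Between borders placed on the same input reads, 760301 to 766900 held 995 su(Hw)f input reads against 25 wild-type input reads, a ratio of 26.9 (18.1 to 41.8). The preimmune libraries held 733 and 10 reads. su(Hw)f input stood at 3.41 times its flanks between the borders and wild-type input at 0.0882 times, so the libraries departed from their flanks in opposite directions. The flanks are themselves thinly covered, at 44.3 reads per kb in su(Hw)f and 42.9 in wild type. On X, 21630001 to 21638000 held 638 su(Hw)f input reads against 2 wild-type input reads. Its flanks were thinly covered, at 10.9 reads per kb in su(Hw)f and 6.82 in wild type.

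In the interior of the arms, 8 higher segments passed 1.5-fold. In 6 of them su(Hw)f input stood at least 1.5 times above its own flanks, and in none did wild-type input do so. Wild-type input was within 1.5-fold of its flanks in 7 of the 8. The longest was 2L 12864001 to 12934000, with 20391 reads in su(Hw)f input against 7884 in wild-type input, a ratio with an interval of 1.70 to 1.79, and 1.77 in preimmune. It stood at 1.92 times its flanks in su(Hw)f and 1.07 times in wild type.

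The next longest was 3R 10956001 to 10968000. It held 3395 su(Hw)f input reads against 1208 wild-type input reads, a ratio of 1.90 (1.78 to 2.03), and 2969 against 907 in preimmune, a ratio of 1.97 (1.83 to 2.12). su(Hw)f stood at 1.96 times its flanks in input and 1.67 times in preimmune, and wild type at 0.964 and 0.728 times. The segment was not even: the 1 kb windows 2 and 3 kb after its start held 0 and 0 su(Hw)f input reads against 3 and 0 for wild type, the window at 10 kb held 598 against 188, and the last one held 160 against 124. Also on this arm, 3R 8532001 to 8542000 held 5705 su(Hw)f input reads against 1659 wild-type input reads. That is a ratio of 2.32 (2.20 to 2.46) in input and 2.45 (2.29 to 2.63) in preimmune. This segment, 2L 22455701 to 22463500 and the tip of 2L fall outside the rule for named segments and were chosen after their values were seen. The same holds for segments of 14 kb or less on the large arms first described from here on, except 3R 400001 to 412000. X 21606001 to 21612000, 2L 19076001 to 19082000 and the middle segment of the X stretch, 2726001 to 2740000, also fall outside the rule.

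On X, 19568001 to 19574000 had the largest ratio among these interior segments, with 4225 reads in su(Hw)f input against 1142 in wild-type input. The ratio was 2.5 (2.34 to 2.67) in input and 2.57 (2.33 to 2.83) in preimmune. X 778001 to 784000 was at 1.85 (1.69 to 2.03) and 1.79 (1.64 to 1.96), with 1765 reads in su(Hw)f input against 645 in wild type. X 3942001 to 3948000 was at 1.63 (1.49 to 1.77) and 1.65 (1.5 to 1.81), and 3L 1310001 to 1316000 at 1.73 (1.61 to 1.86) and 1.84 (1.67 to 2.03). In these 4, the input and preimmune intervals overlap.

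**Figure D4:**
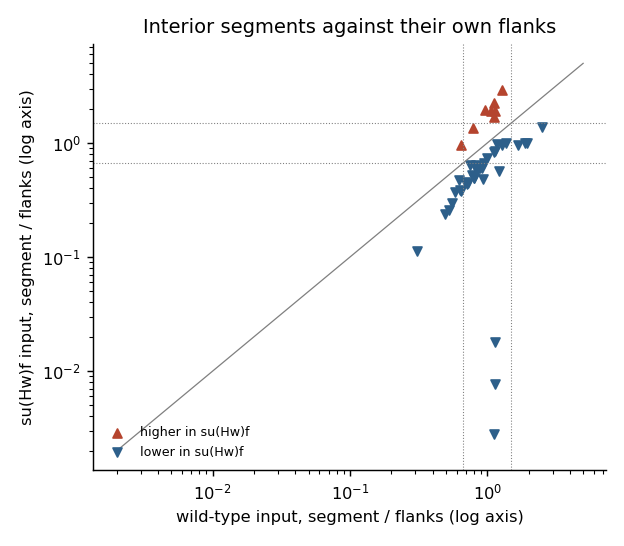
Reads per kb in a segment over those in its flanks of 50 kb on each side, su(Hw)f input against wild-type input (both log axes), for the interior segments past 1.5-fold. Of the 8 higher segments, 6 lie above 1.5 in su(Hw)f and none does in wild type, and 4 lower segments lie above 1.5 in wild type with su(Hw)f between 0.964 and 1.38.

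Of 37 lower interior segments past 1.5-fold, 4 had wild-type input at least 1.5 times above its flanks. A segment whose flanks also have a lower ratio can miss this count. In 3L 13858001 to 13882000, described below, wild-type input was at 1.37 times flanks that were themselves at a ratio of 0.751. The longest of the 4 was 2L 5202001 to 5216000. It held 2683 reads in su(Hw)f input against 3548 in wild-type input, although the su(Hw)f library is the deeper one. The ratio was 0.511 (0.486 to 0.538) in input and 0.521 (0.494 to 0.551) in preimmune. Wild type stood at 1.94 times its flanks in input and 2.01 times in preimmune, and su(Hw)f at 0.996 and 0.965 times. X 20758001 to 20764000 had the same form, at 0.494 (0.448 to 0.545) in input and 0.538 (0.488 to 0.592) in preimmune, with su(Hw)f input level with its flanks and wild-type input at 1.90 times its own. In 3L 13620001 to 13626000 and 3L 7350001 to 7356000 wild-type input stood at 1.68 and 2.49 times its flanks, with ratios of 0.532 and 0.580, which in preimmune were 0.694 and 0.769.

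**Figure D5:**
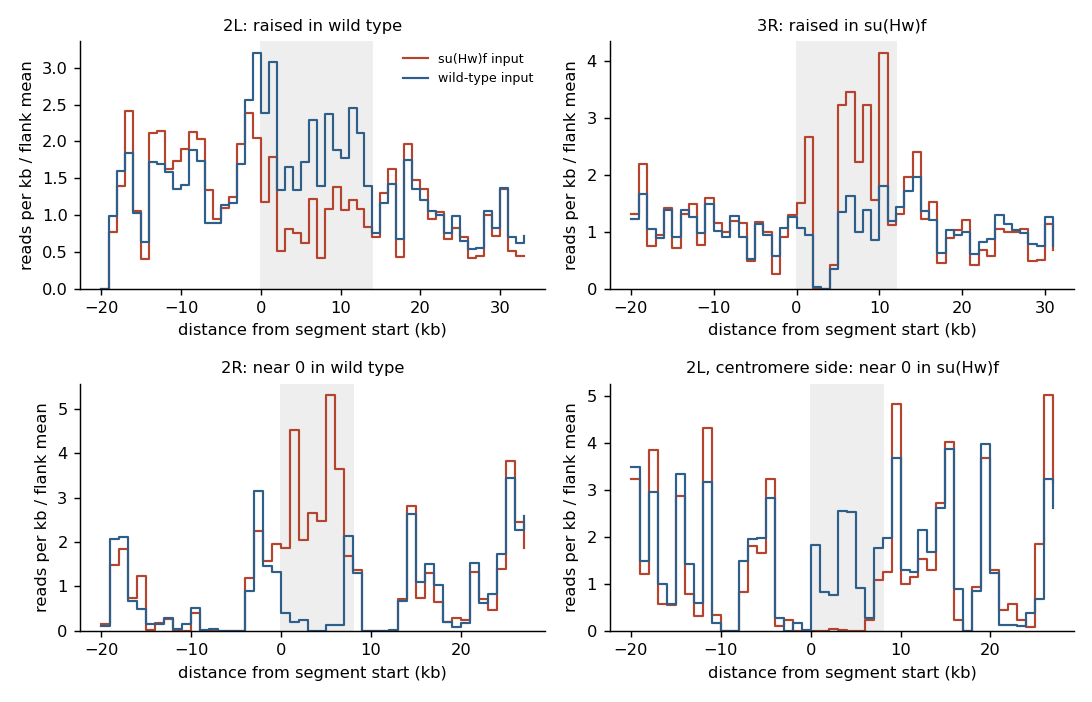
Reads per kb over the mean of the flanks, against distance from the segment start, for su(Hw)f input and wild-type input at 4 segments (shaded). Wild type is raised in 2L 5202001 to 5216000. In most of 2R 760001 to 768000 wild type is near 0, while su(Hw)f is raised, at 3.02 times its flanks over the segment. su(Hw)f is also raised in 3R 10956001 to 10968000, and it is near 0 in most of 2L 22458001 to 22466000.

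Other lower interior segments had another form. Of the 37, wild-type input lay below its own flanks in 24 and su(Hw)f input in 35, and in 8 both lay at least 1.5-fold below. The median over the 37 was 0.563 times the flanks in su(Hw)f input and 0.880 times in wild-type input. In preimmune the medians were 0.863 times and 1.2 times, so the wild-type median lay below 1 in input and above 1 in preimmune. 3R 21264001 to 21270000 is an example, at 0.377 times its flanks in su(Hw)f input and 0.647 times in wild-type input, against 0.801 and 1.49 times in preimmune. The level over flanks thus moved with the kind of library as well as with genotype, and the part of library kind in the ratio was not tested. The share of lower windows was also uneven over the preimmune level: 10.2% of interior 2 kb windows in the lowest decile of preimmune reads, 2.77% in the fifth and 5.41% in the highest. The share of higher windows was larger at both ends too, at 1.99%, 0.266% and 1.21% in the same deciles.

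On 3L a lower stretch ran over several segments. In 10 kb windows, the ratio was 0.579 (0.537 to 0.625) at 13820001 to 13830000, 0.494 (0.462 to 0.528) at 13860001 to 13870000 and 0.647 (0.597 to 0.701) at 13940001 to 13950000. In preimmune the same windows were at 0.499, 0.434 and 0.712. At 13860001 to 13870000, su(Hw)f stood at 0.907 times the interior median in input and 0.767 times in preimmune, against 1.78 and 1.79 times for wild type. The ratio was back near 1 at 13990001 to 14000000, at 1.01 (0.946 to 1.08). Within the stretch 13920001 to 13930000 was at 0.930, so the stretch was not even. The longest segment in it, 13858001 to 13882000, held 3576 su(Hw)f input reads against 4455 wild-type input reads, a ratio of 0.543 (0.519 to 0.567) and of 0.480 (0.459 to 0.503) in preimmune.

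At 100 kb, 7 of 1089 interior windows differed at least 1.25-fold, and every window on 2R and 3R stayed within that bound. On X, 19500001 to 19600000 had ratios of 1.34 (input) and 1.52 (preimmune), with 35399 reads in su(Hw)f input against 17835 in wild-type input. It contains the X segment with the ratio of 2.5. Input there was high in both strains, at 2.05 times the interior median in su(Hw)f and 1.51 times in wild type. On 3L, 13800001 to 13900000 had ratios of 0.661 (input) and 0.634 (preimmune). On 2L, 17100001 to 17200000, 17200001 to 17300000 and 17800001 to 17900000 were at 0.772, 0.789 and 0.798 in input, and at 0.716, 0.748 and 0.723 in preimmune. Input was low there in both strains, between 0.519 and 0.617 times the median in su(Hw)f and between 0.665 and 0.765 times in wild type. The other 2 windows overlapped the X stretch and the 2L segment described above.

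Lower windows were more frequent near the centromeres. Within 1.5 Mb of the centromere-side ends of the large arms, 513 of 2886 windows of 2 kb were lower (17.8%) and 60 higher (2.08%), against 3.97% and 0.613% of interior windows. The median ratio was 0.875 there and 0.970 in the interior. Of the 119 lower segments outside chromosome 4, 58 lay on the centromere side. They include the lower segments that the rule for named segments picked on 2L and 3R. 2L 22306001 to 22322000 was at 0.612 (0.561 to 0.666) in input and 0.583 in preimmune. 3R 400001 to 412000 was at 0.613 (0.554 to 0.679) in input and 0.570 in preimmune. Chromosome 4, a small and largely heterochromatic chromosome, had a median ratio of 0.706 in 2 kb windows, with 237 of 589 lower and 2 higher. Its longest segments were 294001 to 338000, at 0.635 (0.597 to 0.674), and 106001 to 134000, at 0.636 (0.592 to 0.684). The 4 others among the 12 longest segments, 1012001 to 1036000, 242001 to 264000, 268001 to 290000 and 350001 to 372000, lay between 0.563 and 0.687, and 1012001 to 1036000, at 0.687, did not pass 1.5-fold as a whole. In preimmune the 6 lay between 0.570 and 0.707, and 294001 to 338000, at 0.693, and 268001 to 290000, at 0.707, did not pass 1.5-fold. Both inputs of each lay within 1.5-fold of their flanks, except 350001 to 372000 in su(Hw)f, at 0.575 times. The flanks of the 6 were themselves at input ratios of 0.654 to 0.802, so the lower ratio was not confined to these segments.

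The ends of segments were placed at 100 bp by the position where the share of su(Hw)f reads changed most, separately in the input and the preimmune pair. This was done for 39 segments outside chromosome 4, namely the named ones and those with large ratios, a choice made after the data were seen. Of 78 ends, 14 fell on the same 100 bp window in both pairs, 29 within 300 bp, and 33 lay over 1000 bp apart. A position placed in this way need not be the end of a segment. The left ends of the tips of 2L and 3L are counted among the 14 and the 29. No wild-type read lay in the stretch searched there, so the search returned its first allowed position in both pairs. Their agreement was thus fixed in advance and shows nothing about a border. In 6 segments both ends agreed within 300 bp. On 3R the raised segment ran from 10956701 to 10967200 in input and to 10967000 in preimmune. Within the input borders it held 3214 su(Hw)f input reads against 1040 for wild type, a ratio of 2.09 (1.95 to 2.24). The stretches near 0 in su(Hw)f on 2L at 22455701 to 22463500 and on 2R at 1151401 to 1172300 had the same borders in both pairs. On 2R, 760301 to 766900 in input was 760201 to 767000 in preimmune. On 2L, 22228501 to 22240000 also had the same borders in both, with 186 reads in su(Hw)f input against 369 in wild type. The sixth was the tip of 3L, ending at 64000 in input and 64100 in preimmune. Only this right end was placed by reads, as its left end was the first position of the search in both pairs.

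For the X stretch, the outer ends were placed at 2689601 and 2818501 in input. The preimmune pair gave the same right end, and placed the left one at 2690701. On 2L, the segment raised in wild type began at 5200601 in both pairs and ended before 5215701 in input and 5216801 in preimmune. The left end of the long 2L segment was 12864501 in input and 12864201 in preimmune, while no right end was found. The search placed the largest change inside the raised stretch, and the last 2 kb window, 12932001 to 12934000, still held 724 su(Hw)f input reads against 237 for wild type. The next 4 kb held 0 reads in each of the 4 libraries.

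Most called windows belonged to no segment. Of the called 2 kb windows, 322 of 413 higher (78.0%) and 2258 of 2918 lower (77.4%) stood outside segments. The same call was made in preimmune for 61.5% of those higher and 56.5% of those lower, against 82.4% and 67.6% for windows inside segments. The lowest of them was chromosome 4 476001 to 478000, with 0 su(Hw)f input reads against 130 in wild type. Against a floor of 3 reads in the library at 0 it was 64.1-fold lower, and the interval of its ratio reached up to 0.0195. Preimmune held 0 and 103 reads there. 2R 19636001 to 19638000 held 0 against 68 reads in input and 0 against 61 in preimmune. Against the same floor it was 33.5-fold lower in input, with an interval up to 0.0377. X 12018001 to 12020000, 2L 22336001 to 22338000 and X 22172001 to 22174000 were at 0.140 (0.0765 to 0.243), 0.151 (0.0893 to 0.244) and 0.169 (0.102 to 0.269).

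Of the 5 highest, 2 were the windows at the tip of X, 10001 to 12000 and 12001 to 14000, with 325 and 114 su(Hw)f input reads against 0 for wild type. The other 3 lay on the centromere side of 3L. 3L 23102001 to 23104000 and 23104001 to 23106000 are adjacent, and held 141 and 251 su(Hw)f input reads against 0 for wild type. Against a floor of 3 reads for wild type they were 31.8-fold and 56.6-fold higher, with intervals from 25.5 and 45.7 upward. Wild-type preimmune held 0 reads in both. 3L 23456001 to 23458000 held 133 su(Hw)f input reads against 0 for wild type, with 57 and 0 in preimmune. Against the same floor it was 30-fold higher in input, with an interval from 24 upward. Outside the segments, DNA present in 1 input and at 0 in the other was thus found at the scale of a few kb as well.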

How the data were processed

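The deposited values are read counts per 100 bp window along dm3, unscaled and laid out as wiggle tracks, per the file headers. As build and software, the submitters' processing notes name dm3 and Partek 6.5. Which aligner was used, and whether duplicates or multiply matching reads were kept, is not given in the sources used here. Per the labels, libraries had 15 PCR cycles and fragments of about 250 bp, and PCR reads are not independent molecules.

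Counts were summed to 2 kb and 10 kb on X, 2L, 2R, 3L, 3R and 4, and scaled to each library's reads there (Python 3.11.15, NumPy 2.4.6, SciPy 1.17.1, pandas 2.3.3). A library at 0 was set to 3 counts. The depth was 20288267 arm reads for su(Hw)f input, 13713068 for wild-type input, and 19741807 and 11861422 in preimmune. No test was run, as each group has 1 sample. Calls and borders were run on simulated counts with counting error only, and segments on a made-up row of calls. The simulated borders were 2-fold steps in even coverage. The spread beyond counting error seen in these data was not simulated, nor were borders beside runs without reads. Named segments were the 12 longest, the longest lower and higher one on each arm, and the 5 lowest and 5 highest 2 kb windows in no segment with at least 50 reads in the higher library. Ties in length went to the ratio further from 1 on the log2 scale. The rule, the regions and the alternatives (scaling, count minimum, fold, window size and offset, capped windows, interior only) were chosen with earlier results of these data known. No dm3 annotation was used, so no gene is named.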

Additional observations from a re-analysis of the deposited data

Results flagged for a closer look

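Reads outside the 6 major arms enter no comparison and lay above a floor of 3 counts, with 308181 for su(Hw)f input, 280514 for wild-type input. On the Y scaffold YHet, in libraries made from females, there were 33 su(Hw)f input reads against 27 for wild type. Preimmune held 31 reads there in su(Hw)f and 26 in wild type.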

How the results depend on the processing

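No paired analysis was possible because each genotype has a single input library, with no number that could pair it. The direction of each of the 27 named regions was the same under other scalings and with 100 bp windows capped at 6 times the library median. The ratio of 1 of them, 2L 12864001 to 12934000, moved past its counting interval, to 1.81 under scaling by the median window ratio. Counts of calls, higher then lower in su(Hw)f, depended on fold, window size and position. At 2-fold they were 96 and 454 in 2 kb windows, 15 and 35 in 10 kb windows and 5 and 16 for segments. Larger windows gave 100 and 498 at 5 kb and 4 and 10 at 50 kb, with fewer windows tested. Interior windows alone gave 15 and 45 at 10 kb, and 8 and 55 segments. Requiring 5 windows left 4 and 34 segments. Scaling by the median window ratio gave 20 higher segments. It also gave 619 higher and 2285 lower 2 kb windows. Other count minimums, shifted windows and capping kept each count within 1.5 times. Arm ratios moved past their narrow counting intervals when scaled by the median 10 kb window ratio, to 1.05 on X, 0.995 on 2L, 1.04 on 2R, 1 on 3L, 1.03 on 3R and 0.769 on chromosome 4. Scaled to all reads they were 1.03, 0.978, 1.02, 0.986 and 1.01 on the large arms in that order. Applying median scaling or capping to windows that preimmune also called was added after seeing the data and kept those counts within 1.5 times. The correlation of input and preimmune ratios without the X stretch, also added after seeing the data, moved Pearson r from 0.959 to 0.854 at 100 kb and left Spearman rho at 0.846.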
